A study of Mus musculus with 28 samples.

Results

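A set of 10 genes of the canonical Wnt pathway was followed in RNA from amygdala micropunches of 28 adult female C57BL/6J mice. The 10 genes, chosen by symbol among the 49477 genes that both count tables held, were *Lrp6*, *Fzd3*, *Fzd7*, *Ctnnb1*, *Gsk3b*, *Axin1*, *Axin2*, *Apc2*, *Dkk3* and *Dvl1*. Tests covered the 16266 genes whose counts averaged 10 or more per mouse, and all 10 were among them. The Water group (10 mice) drank only water, the Acute group (9 mice) had a single access to a choice of water and 20% ethanol, and the Chronic group (9 mice) had that choice every other day for a month. All mice were of the inbred strain and individually housed, each library came from 1 mouse, and the punches took the basolateral and central amygdala together. The mice came in 2 batches, purchased separately, with 4 Water, 4 Acute and 3 Chronic mice in the first and 6, 5 and 6 in the second.

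In canonical Wnt signaling, a secreted Wnt ligand binds a Frizzled receptor together with the co-receptor LRP5 or LRP6. The receptor complex recruits Dishevelled and Axin, and the complex that marks beta-catenin for degradation, built from Axin, APC, GSK3 and casein kinase 1, stops working. Beta-catenin then accumulates and switches on targets through TCF and LEF factors in the nucleus, and in the adult brain the pathway is known for roles at synapses, in blood vessels and in glial maturation.

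Total counts per mouse ranged from 20004380 to 22569562. Values per mouse are given as CPM (a gene's counts relative to the library total, after edgeR's TMM scaling) with the difference between the batches removed on the log2 scale, so a level is a midpoint of the batches. Differences between groups are log2 fold changes from edgeR's quasi-likelihood test over all 28 mice with batch as a covariate. A gene is called where its Benjamini-Hochberg adjusted p over all 16266 genes is under 0.05. The sample was amygdala tissue with a variable admixture: neuron markers summed to between 6760 and 7970 CPM in every mouse and central amygdala markers to between 339 and 473 CPM. The 8 markers of choroid plexus and ependyma, tissue that lines the ventricles, summed to between 18 and 4320 CPM. Striatum markers ranged from 494 to 1920 CPM and oligodendrocyte markers from 1380 to 3440 CPM. The choroid plexus sum passed 1000 CPM in 5 of 10 Water, 4 of 9 Acute and 4 of 9 Chronic mice.

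None of the 10 Wnt genes was called in any of the 3 comparisons. Between Acute and Water mice, 0 of 10 passed, beside 0% of all genes tested, where the lowest adjusted p was 0.136 and 30 genes passed in ComBat-seq with DESeq2. Between Chronic and Water mice 0 of 10 passed, beside 0.0184% of all genes (3 genes, and 6 without Water mouse 3, 5 without Chronic mouse 37 and 0 without the mice rich in choroid plexus markers). DESeq2 called 36 genes there with 0 of the 10, and ComBat-seq with DESeq2 called 98 with 1 of the 10, *Lrp6*. Between Chronic and Acute mice it was 0 of 10, beside 0%, also by DESeq2, ComBat-seq with DESeq2 and limma-voom. At an unadjusted p under 0.05, 3 of the 10 stood out in Acute mice, *Lrp6* and *Fzd3* with lower values and *Dvl1* with higher ones. Over all genes 4.45% were lower and 5.07% higher by that measure. In Chronic mice *Lrp6* and *Fzd3* were again the members at an unadjusted p under 0.05, both lower, where 5.65% of all genes were lower and 4.81% higher. Between Chronic and Acute mice there were 0 members at that level, where 2.5% of all genes were lower and 1.95% higher. The comparisons with Water share the same 10 control mice, so the recurrence of *Lrp6* and *Fzd3* is not a second observation. In each comparison the fold changes were below 0 for 7, 7 and 6 of the 10 genes, beside 49.4%, 49% and 50.6% of all genes. The median of the 10 was -0.03, -0.01 and -0.01, and that of all genes lay within 0.01 of 0.

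**Figure D1:**
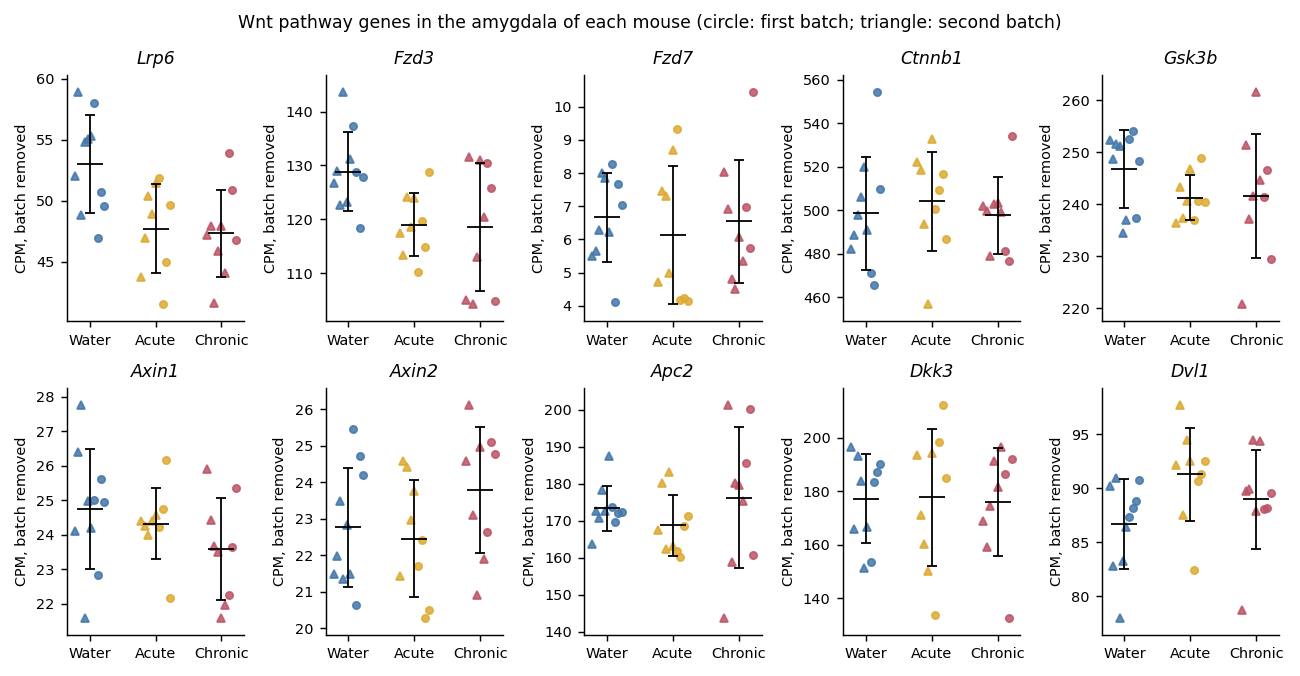
CPM with batch removed of the 10 Wnt genes in each mouse of the Water (blue), Acute (yellow) and Chronic (red) groups, with circles for the first and triangles for the second batch, and black bars for the mean and SD of the group. Each axis has its own range and does not start at 0. The groups overlap for every gene, and *Lrp6* averages 53 CPM in Water mice, 47.7 in the Acute group and 47.4 in the Chronic group.

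Transcript length sets how many counts a gene collects, so levels were compared between genes only as CPM per kilobase of the longest transcript, in the 10 Water mice. *Ctnnb1*, which encodes beta-catenin, had the highest level of the 10, 138 ± 7.16 CPM per kb (SD, n = 10). *Dkk3*, a secreted member of the Dickkopf family, followed with 52.7 ± 4.93, and *Gsk3b*, a kinase that phosphorylates beta-catenin, with 29.7 ± 0.903 CPM per kb. *Apc2* (18.9 ± 0.671) and *Dvl1* (18.2 ± 0.871) did not differ beyond their spread. *Fzd3* stood at 10.1 ± 0.577 CPM per kb, above the ranges of the genes that follow it. *Axin1* (6.55 ± 0.459), *Lrp6* (5.66 ± 0.428) and *Axin2* (5.34 ± 0.385) formed a group whose neighbours overlapped mouse by mouse. *Fzd7* was lowest, at 1.47 ± 0.294 CPM per kb. The order depends on which length is used: with the median transcript length *Gsk3b* (141) and *Apc2* (119) both passed *Dkk3* (52.7). By that length *Lrp6* had 28.7 and *Dvl1* 28.5 CPM per kb, and *Fzd3* (19.6) lay under both *Lrp6* and *Axin2* (21.7).

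Among the 93 tested genes of the wider Wnt lists the same scale placed these 10 by role. *Fzd3* was the highest of the 10 Frizzled receptors, followed by *Fzd2* at 3.3 CPM per kb, and *Lrp6* exceeded its close relative *Lrp5* at 1.36 CPM per kb. *Dkk3* was the highest of the extracellular antagonists, above *Sostdc1* at 7.47 ± 4.86 CPM per kb (SD, n = 10). The classic Dickkopf antagonists *Dkk1*, *Dkk2* and *Dkk4* lay under the filter, with means of 0.25, 6.79 and 0.107 counts per mouse. *Dvl1* was the most abundant of the 3 Dishevelled genes, with *Dvl3* at 12.3 and *Dvl2* at 4.67 CPM per kb.

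**Figure D2:**
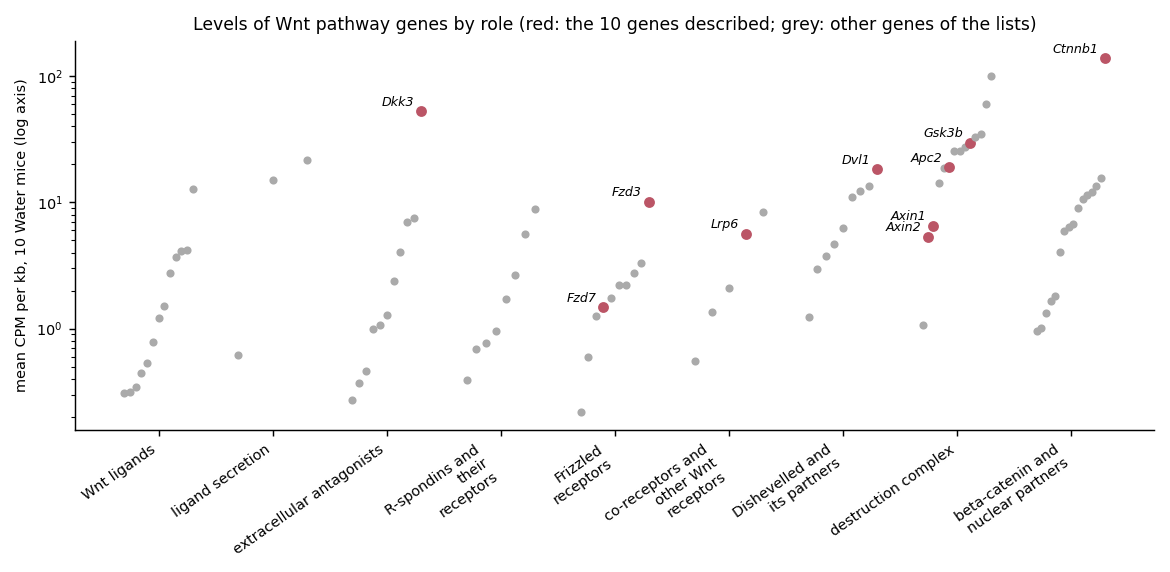
Mean CPM per kilobase of the longest transcript in the 10 Water mice, on a log axis, for each tested gene of 9 role lists (red and labelled, the 10 genes described here; grey, the others). *Ctnnb1* at 138, *Dkk3* at 52.7 and *Fzd3* at 10.1 are at the top of their lists. *Fzd7* at 1.47 is the lowest of the 10 genes, with other Frizzled receptors below it, down to 0.217. *Apcdd1* is left out because it is listed at 0 in the first batch.

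*Lrp6* encodes the transmembrane co-receptor that binds Wnt together with Frizzled, and it lies on the minus strand at chr6:134446476-134566965 (GRCm38). In Water mice its lowest, median and highest CPM were 47, 53.4 and 58.9. In Acute mice they were 41.5, 48.9 and 51.9, and in Chronic mice 41.7, 47.2 and 53.9. The groups overlapped, but 9 of 9 Acute and 8 of 9 Chronic mice lay below the Water mean. The log2 fold change was -0.15 (SE 0.0499, 95% interval -0.254 to -0.05, a difference of -10%) in Acute mice, with an edgeR p of 0.00488 and an adjusted p of 0.407. In Chronic mice it was -0.16 (SE 0.0499, interval -0.264 to -0.06, -10.6%), with p = 0.00298 and adjusted p = 0.241. Between Chronic and Acute mice it was -0.01 (interval -0.115 to 0.095). *Lrp6* is among the genes that the study called on these same mice, so its direction in Chronic mice is a description and no independent evidence.

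The difference in *Lrp6* was unequal in the batches for Chronic mice and near equal for Acute mice. In the first batch, CPM within the batch ranged from 49.8 to 61.5 in Water, 44 to 55 in Acute and 49.6 to 57.1 in Chronic mice. In the second it ranged from 45.9 to 55.4 in Water, 41.2 to 48.4 in Acute and 39.2 to 45.1 in Chronic mice. All 6 Chronic mice of the second batch therefore lay below all 6 Water mice, which held for 0.387% of all genes tested in that direction. The log2 difference from Water within the batch was -0.13 and -0.17 in Acute mice and -0.02 and -0.24 in Chronic mice. An interaction of group and batch, added after the values were seen, gave a difference between the batches' Chronic effects of -0.22 (edgeR p = 0.032, adjusted p = 0.789). For the Acute effects that difference was -0.04 (p = 0.685, adjusted p = 0.999).

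*Lrp6* was called in Chronic mice under 1 alternative, the batch adjustment with ComBat-seq followed by DESeq2 that the study's methods describe. There the log2 fold change was -0.19 and the adjusted p 0.0455. The adjusted p was 0.111 in DESeq2 with batch as a covariate, and over all alternatives to the Chronic comparison it lay above 0.05 apart from that one. The size of the difference depended on the fit: with the neuron marker level as a covariate it was -0.06 in Acute (p = 0.162) and -0.11 in Chronic mice, and with offsets for GC content and length -0.09 and -0.10. Leaving out any 1 of the 28 mice kept the edgeR fold change of *Lrp6* between -0.19 and -0.14 in Chronic mice (adjusted p 0.121 to 0.458) and between -0.17 and -0.13 in Acute mice (adjusted p 0.25 to 0.688).

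*Fzd3* encodes a Frizzled receptor best known for axon guidance and planar cell polarity, and lies on the minus strand at chr14:65192449-65262463. Its lowest, median and highest CPM were 118, 128 and 144 in Water mice, 110, 118 and 129 in Acute mice, and 104, 120 and 132 in Chronic mice. The groups overlapped, with 8 of 9 Acute and 6 of 9 Chronic mice below the Water mean. The spread was widest among Chronic mice, with a CV of 10% beside 5.7% in Water and 4.9% in Acute mice. The log2 fold change was -0.12 (SE 0.0468, edgeR p = 0.0203, adjusted p = 0.472) in Acute and -0.12 (SE 0.0468, p = 0.0153, adjusted p = 0.346) in Chronic mice. With offsets for GC content and transcript length these values became -0.02 (p = 0.352) and -0.03 (p = 0.165). Within the batches it was -0.11 and -0.11 for Acute and -0.09 and -0.14 for Chronic mice. Its level went against the marker levels of central amygdala (r = -0.57 over 28 mice) and of neurons (r = -0.55). The central amygdala level, as mean log2 CPM, was 0.242 higher in Acute and 0.101 higher in Chronic than in Water mice, with an SD of 0.23 within groups, and its part in the result was not tested. *Fzd3* overlaps the annotated genes *Gm27263* on its own strand and *Gm9086* on the other. The strandedness of the libraries is not given in the sources used here, and whether exons are shared was not examined. A share of the *Fzd3* counts could therefore belong to either. Annotated genes also overlap the spans of *Ctnnb1*, *Gsk3b*, *Axin1*, *Axin2*, *Apc2* and *Dvl1*.

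*Fzd7* encodes a Frizzled receptor of canonical signaling and lies on the plus strand at chr1:59482424-59486955. Its lowest, median and highest CPM were 4.13, 6.66 and 8.26 in Water, 4.15, 4.99 and 9.34 in Acute and 4.51, 6.09 and 10.5 in Chronic mice. It was the most variable of the 10 genes, with an SD of 0.392 log2 units within group and batch, while the other genes had between 0.0535 and 0.188. The fold changes were accordingly imprecise: -0.14 (95% interval -0.503 to 0.225) in Acute mice and -0.01 (-0.373 to 0.349) in Chronic mice. In Water mice its second-batch minus first-batch difference was -0.92 on the log2 scale, and its level went with that of the choroid plexus markers (Pearson r = 0.75 over the 28 mice). This r is a description, since the points share libraries. With that marker level as a covariate, the Chronic fold change of *Fzd7* was 0.042.

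*Dvl1* encodes a Dishevelled protein, which links Frizzled to Axin, and lies on the plus strand at chr4:155847402-155859303. Its lowest, median and highest CPM were 78, 87.7 and 90.9 in Water, 82.5, 92.1 and 97.7 in Acute and 78.8, 89.5 and 94.5 in Chronic mice. The groups overlapped, and 8 of 9 mice in each drinking group were above the Water mean. The log2 fold change was 0.07 (SE 0.0341, 95% interval 0.005 to 0.144, edgeR p = 0.0363, adjusted p = 0.502) in Acute and 0.04 (interval -0.032 to 0.108, p = 0.274, adjusted p = 0.732) in Chronic mice. The Acute difference was 0.007 in the first and 0.12 in the second batch, and the interaction of group and batch was 0.116 (edgeR p = 0.0998, adjusted p = 0.999). With the neuron marker level as a covariate the Acute value was 0.045 (edgeR p = 0.232, adjusted p = 0.866). With ComBat-seq it was 0.055 (DESeq2 p = 0.0952, adjusted p = 0.528). *Tas1r3* overlaps *Dvl1* on the opposite strand.

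*Dkk3* encodes a secreted Dickkopf-family protein that, unlike the classic antagonists, is not known to bind LRP6 directly. It is on the minus strand at chr7:112116017-112159057. Its lowest, median and highest CPM were 151, 184 and 197 in Water, 134, 185 and 212 in Acute and 133, 181 and 196 in Chronic mice. The groups overlapped, with the widest range in Acute mice, and the log2 fold changes were 0.003 (95% interval -0.154 to 0.16) in Acute and -0.01 (-0.167 to 0.148) in Chronic mice. With the neuron marker level as a covariate the Acute value was -0.137 (edgeR p = 0.0566, adjusted p = 0.828). Levels of *Dkk3* went with those of pallial excitatory neuron markers (r = 0.77 over 28 mice) and against those of oligodendrocyte markers (r = -0.59), as a description of punches that share libraries.

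**Figure D3:**
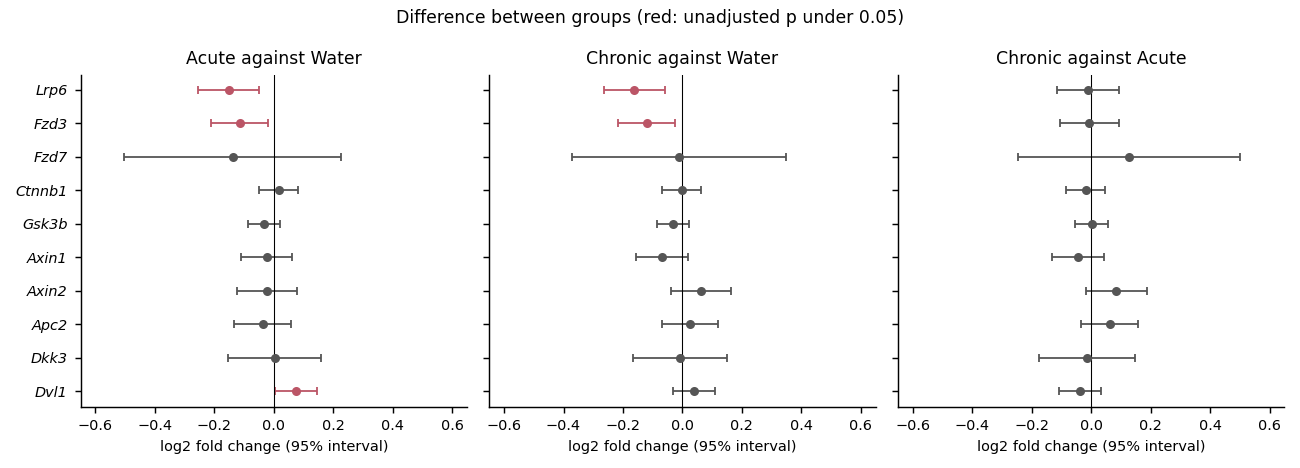
Log2 fold changes (points) with 95% intervals (lines) of the 10 Wnt genes for Acute against Water, Chronic against Water and Chronic against Acute, from edgeR with batch as a covariate. Red marks an unadjusted p under 0.05: *Lrp6* at -0.15 and -0.16, *Fzd3* at -0.12 in both, and *Dvl1* at 0.07 in Acute mice. Intervals of *Fzd7* are the widest.

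Of the 10 genes, 4 belong to the beta-catenin destruction complex: *Axin1* and *Axin2*, its scaffolds, *Apc2*, a neuronal relative of APC, and *Gsk3b*, its kinase. None of the 4 had an unadjusted p under 0.05 in any comparison with edgeR and batch as a covariate. *Gsk3b* (chr16:38089001-38246084, plus strand) was the most even, with 234, 250 and 254 CPM as lowest, median and highest in Water, 236, 241 and 249 in Acute and 221, 242 and 262 in Chronic mice. Its log2 fold changes were -0.03 (95% interval -0.086 to 0.02) and -0.03 (-0.084 to 0.022), so changes larger than 0.1 in either direction fall outside both intervals.

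*Axin1* (chr17:26138688-26195811, plus strand) had 21.6, 25 and 27.8 CPM in Water, 22.2, 24.4 and 26.2 in Acute and 21.6, 23.6 and 25.9 in Chronic mice. Its log2 fold change was -0.02 (95% interval -0.11 to 0.061) in Acute and -0.07 (-0.155 to 0.017, edgeR p = 0.11, adjusted p = 0.583) in Chronic mice. Without the mice past 1000 CPM of choroid plexus markers the Chronic value was -0.13 (p = 0.0473, adjusted p = 0.53). *Apc2* (chr10:80295977-80318263, plus strand) had 164, 172 and 187 CPM in Water, 160, 167 and 183 in Acute and 144, 180 and 201 in Chronic mice. Its mean was level across the groups, but its spread was widest in Chronic mice, with a CV of 10.8% beside 3.55% in Water mice, and the log2 fold changes were -0.04 (interval -0.133 to 0.056) and 0.02 (-0.07 to 0.118).

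*Axin2* (chr11:108920349-108950783, plus strand) is both a scaffold of the complex and a widely used target gene, switched on by beta-catenin as negative feedback. Its lowest, median and highest CPM were 20.6, 22.4 and 25.5 in Water, 20.3, 22.4 and 24.6 in Acute and 20.9, 24.6 and 26.1 in Chronic mice. The groups overlapped, and the log2 fold change was -0.02 (95% interval -0.123 to 0.077) in Acute and 0.06 (-0.037 to 0.163) in Chronic mice. Its Acute difference had opposite signs in the batches, -0.16 in the first and 0.08 in the second, with an interaction of 0.25 (edgeR p = 0.0103, adjusted p = 0.999). Between Chronic and Acute mice the log2 fold change was 0.09 (interval -0.017 to 0.188, p = 0.0985, adjusted p = 0.998).

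*Axin2* and *Fzd7* levels went together over the 28 mice (r = 0.59 with batch removed, 0.6 as deviations from the means of group and batch). Both also went with the choroid plexus and ependyma markers (r = 0.75 for *Fzd7* and 0.41 for *Axin2*) and against the neuron markers (r = -0.59 and -0.37), and the part of these in the correlation was not tested. Since *Axin2* is the standard target and *Fzd7* the gene most like it among the 10, their promoters are shown, as the 250 bases before the RefSeq start on the plus strand (GRCm38.p6), with matches to the TCF and LEF core motifs CTTTGAT and CTTTGTT on either strand in capitals. The Axin2 window is chr11:108920099-108920348 and the Fzd7 window is chr1:59481897-59482146.

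Axin2: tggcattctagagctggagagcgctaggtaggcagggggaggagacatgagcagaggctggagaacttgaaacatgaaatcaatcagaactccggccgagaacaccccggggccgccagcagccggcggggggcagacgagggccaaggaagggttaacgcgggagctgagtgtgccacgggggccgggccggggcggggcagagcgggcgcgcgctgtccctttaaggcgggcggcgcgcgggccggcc

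Fzd7: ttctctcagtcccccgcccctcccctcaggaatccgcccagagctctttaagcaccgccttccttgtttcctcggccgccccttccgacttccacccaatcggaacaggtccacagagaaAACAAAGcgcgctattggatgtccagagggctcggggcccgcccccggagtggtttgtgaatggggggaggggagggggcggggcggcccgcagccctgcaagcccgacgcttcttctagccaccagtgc

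The Fzd7 window held 1 match on the reverse strand, beginning 130 bases before the RefSeq start, and the Axin2 window held none of these letters. That RefSeq start of Fzd7 lies upstream of the gene start given above, chr1:59482424. Bases outside the windows and other forms of the motif were not searched, so sites elsewhere cannot be judged. Either motif was found in 8.06% of all 32851 promoter windows of that length. Both windows were rich in G and C, at 69.2% for Axin2 and 65.2% for Fzd7. RefSeq promoters were matched for 6 of the 10 genes, with 10 windows in all, and the only other match was 1 in an *Apc2* window. *Lrp6*, *Fzd3*, *Axin1* and *Dkk3* had no entry in the promoter table used here.

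*Ctnnb1* (chr9:120929216-120960507, plus strand) encodes beta-catenin itself, whose activity is set mainly by the stability of the protein. Its lowest, median and highest CPM were 466, 494 and 554 in Water, 457, 509 and 533 in Acute and 476, 500 and 534 in Chronic mice. The groups coincided, with a log2 fold change of 0.02 (95% interval -0.049 to 0.08) in Acute and -0.003 (-0.068 to 0.062) in Chronic mice. This was the tightest bound on any of the genes beside *Gsk3b*. RNA levels do not measure the protein or its place in the cell.

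In the wider pathway, 107 genes in 10 lists covered ligands, secretion, receptors, antagonists, Dishevelled partners, the destruction complex, nuclear partners and targets, and 93 were tested. None was called in any comparison, with a lowest adjusted p of 0.407 in Acute, 0.186 in Chronic and 0.998 in Chronic against Acute mice. At an unadjusted p under 0.05, 8 were lower and 2 higher in Acute mice, 6 lower and 6 higher in Chronic mice, and 2 lower and 5 higher in Chronic than in Acute mice. Over all genes the shares were 4.45% lower and 5.07% higher in Acute mice, 5.65% and 4.81% in Chronic mice, and 2.5% and 1.95% in Chronic against Acute mice. The median log2 fold change of the 93 was -0.01, 0.02 and 0.02.

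Among co-receptors and other Wnt receptors, *Ptk7*, which acts in planar cell polarity, had a log2 fold change of -0.17 (edgeR p = 0.0266, adjusted p = 0.486) in Acute mice. *Lrp5* had -0.10 (p = 0.191) and -0.14 (p = 0.0678) in Acute and Chronic mice, the same sign as *Lrp6* but with a p above 0.05. *Fzd1*, a Frizzled receptor, had 0.16 in Chronic mice (p = 0.0378, adjusted p = 0.44), the opposite sign to *Fzd3*, with 0.043 in the first and 0.239 in the second batch. *Znrf3*, a ubiquitin ligase that removes Frizzled and LRP6 from the membrane, had -0.13 in Acute (p = 0.0317, adjusted p = 0.498) and -0.12 in Chronic mice (p = 0.044, adjusted p = 0.462).

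The smallest p of the lists belonged to *Tnks2*, a tankyrase that marks Axin for degradation. Its mean CPM was 166 in the Water group, 159 in the Acute group and 153 in the Chronic group. The log2 fold change was -0.07 in Acute (edgeR p = 0.0384, adjusted p = 0.502) and -0.11 in Chronic mice (SE 0.0302, p = 0.000735, adjusted p = 0.186). Within the batches the Chronic difference was -0.11 and -0.12, so unlike that of *Lrp6* it was alike in both.

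Of the 13 ligands tested, 2 were below 0 in Chronic mice, beside 49% of all genes, with a median log2 fold change of 0.0874. In Acute mice 5 of the 13 were below 0, beside 49.4% of all genes, with a median of 0.0911. At an unadjusted edgeR p under 0.05, 1 ligand was lower and 2 higher in Chronic mice, where 5.65% and 4.81% of all genes were. In Acute mice 0 were lower and 0 higher, where 4.45% and 5.07% of all genes were. The lowest of the 13 had a mean of 13.6 counts per mouse, near the filter of 10. *Wnt4* had a log2 fold change of 0.26 (edgeR p = 0.0228, adjusted p = 0.378) and *Wnt7b* 0.15 (p = 0.0368, adjusted p = 0.436) in Chronic mice. *Wnt2* went the other way, with -0.43 in Chronic against Water mice (p = 0.0409, adjusted p = 0.453) and 9 of 9 Chronic mice below the Water mean. Within the first and second batch these Chronic differences were 0.104 and 0.358 for *Wnt4*, 0.034 and 0.221 for *Wnt7b*, and -0.079 and -0.451 for *Wnt2*. *Wnt2* had -0.52 between Chronic and Acute mice (p = 0.0158, adjusted p = 0.998), at a mean of 1.33 and 1.88 CPM. Of the 20 listed ligands, 7 lay under the filter, among them *Wnt3a* with a mean of 0.0714 counts.

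Of the 12 tested extracellular antagonists, 3 were below 0 in Chronic mice, beside 49% of all genes, with a median log2 fold change of 0.148. In Acute mice 6 of the 12 were below 0, with a median of -0.002. In Chronic mice 2 of the antagonists, *Dkkl1* and *Apcdd1*, were higher at an unadjusted p under 0.05, where 4.81% of all genes were, and 0 were called. Of the 11 tested transcriptional targets, 6 were below 0 in Acute mice (2 lower and 0 higher at that level), 5 in Chronic mice (1 lower and 2 higher) and 1 in Chronic against Acute mice (0 and 0), with medians of -0.0226, 0.000544 and 0.0855 and 0 called. *Dkkl1*, a Dickkopf-like gene, had 0.30 (edgeR p = 0.0287, adjusted p = 0.412) and *Nkd1*, a Dishevelled inhibitor and Wnt target, 0.17 in Chronic mice (p = 0.00484, adjusted p = 0.26). Within the first and second batch the difference of *Nkd1* was 0.169 and 0.166, and that of *Dkkl1* 0.08 and 0.417. *Apcdd1*, an antagonist and target, had 0.16 in Chronic mice (p = 0.0199, adjusted p = 0.369). That value rests on the second batch alone, since *Apcdd1* is listed at 0 in all 11 first-batch mice and between 470 and 624 counts in the second. *Sfrp2* and *Frzb*, secreted Frizzled-related proteins, had 0.43 (p = 0.0262) and 0.44 (p = 0.0264) between Chronic and Acute mice, each with an adjusted p of 0.998.

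Of the nuclear partners, *Bcl9*, a coactivator of beta-catenin, had a log2 fold change of -0.10 in Acute mice (edgeR p = 0.0281, adjusted p = 0.49) and 0.12 in Chronic against Acute mice (p = 0.0109, adjusted p = 0.998). Within the first and second batch its Acute difference was -0.181 and -0.035. *Ctnnbip1*, which blocks the binding of beta-catenin to TCF, had 0.08 in Acute mice (p = 0.0308, adjusted p = 0.497). *Tle4*, a corepressor, had -0.26 in Chronic mice (p = 0.0095, adjusted p = 0.295) and -0.22 in Chronic against Acute mice (p = 0.0272, adjusted p = 0.998). Its Chronic difference from Water was -0.119 in the first and -0.298 in the second batch. Of the targets, *Tnfrsf19* had -0.09 in Acute mice (p = 0.0281, adjusted p = 0.49), and *Lef1*, *Myc* and *Ccnd1* had a p above 0.05 in every comparison.

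GC content and transcript length moved with the fold changes of all genes. Across the 16266 genes, which are not independent replicates, the Spearman correlation of the fold change with GC content was 0.182 in Acute and 0.345 in Chronic mice, and with length -0.279 and -0.291. In Chronic mice the median log2 fold change was -0.04 over genes of 27.5 to 43.6% GC and 0.05 over those of 55.4 to 78.3%. *Fzd3* has the lowest GC content of the 10, 40.3%, and the longest transcript, 12.7 kb. *Lrp6* has 46% and 9.37 kb, and *Dvl1* 59.3% and 4.77 kb. When both trends were fitted in every mouse and taken out as offsets, *Fzd3* took the values given above, and the log2 fold change of *Lrp6* was -0.09 in Acute (edgeR p = 0.0488, adjusted p = 0.716) and -0.10 in Chronic mice (p = 0.0308, adjusted p = 0.777). *Dvl1* had 0.07 in Acute mice (p = 0.0411) and 0.004 in Chronic mice. *Gsk3b*, at 46.1% GC and 8.3 kb, changed sign to 0.03 in both. *Axin1*, at 56.6% GC and 3.78 kb, had -0.105 in Chronic mice (p = 0.00931, adjusted p = 0.683), beside -0.07 without the offsets, the smallest p of the 10 genes in that fit.

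**Figure D4:**
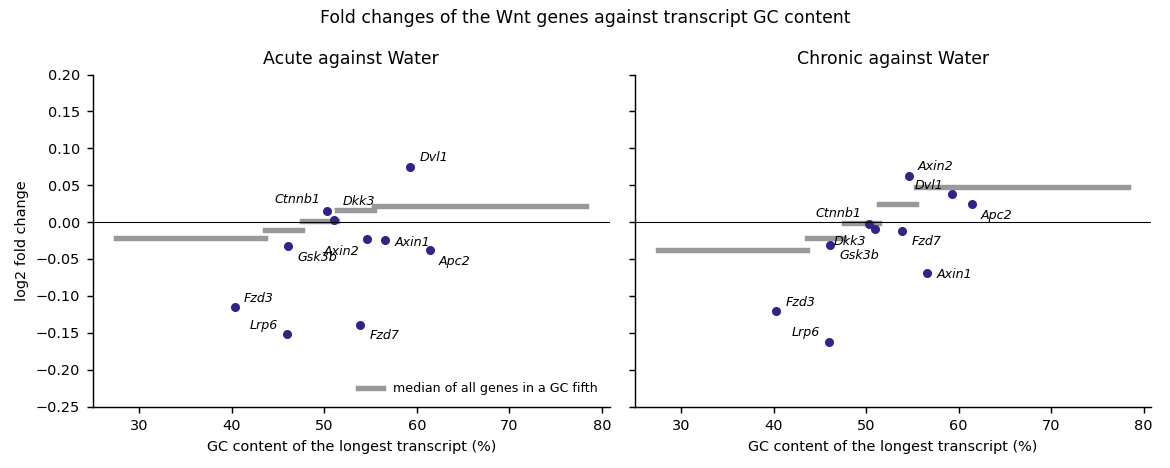
Log2 fold change of the 10 Wnt genes (points) against the GC content of their longest transcript in percent, with the median of all tested genes in 5 bins of GC content with equal numbers of genes (grey bars), for Acute and Chronic against Water. *Lrp6* (46%) and *Fzd3* (40.3%) lie below the grey bars of their bins, which are between -0.04 and -0.01.

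Marker levels of other cell types also moved with *Lrp6*. Over the 28 mice its level went against that of the neuron marker list (r = -0.74, 10 of 10 markers tested) and with that of choroid plexus and ependyma (r = 0.47, 8 of 8 tested). The neuron list's mean log2 CPM was 9.158 in the Water group, 9.209 in the Acute group and 9.187 in the Chronic group, with an SD of 0.043 within groups. Of its 10 genes, 3 had an unadjusted p under 0.05 in Acute and 1 in Chronic mice, and 0 were called. With the neuron level as a covariate, a fit added after the values were seen, the log2 fold change of *Lrp6* was -0.06 in Acute (edgeR p = 0.162, adjusted p = 0.85) and -0.11 in Chronic mice (p = 0.00987, adjusted p = 0.375). *Fzd3* had -0.06 (p = 0.245) and -0.09 (p = 0.0533) and *Dvl1* 0.05 (p = 0.232) in Acute mice, so 0 members remained at an unadjusted p under 0.05 in Acute mice and 1, *Lrp6*, in Chronic mice. With the choroid plexus level as a covariate *Lrp6* had -0.14 and -0.15, and without the mice past 1000 CPM of its markers -0.16 and -0.23 (adjusted p 0.277 in Chronic mice). In bulk tissue, fewer cells of a type and less RNA per cell cannot be told apart.

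**Figure D5:**
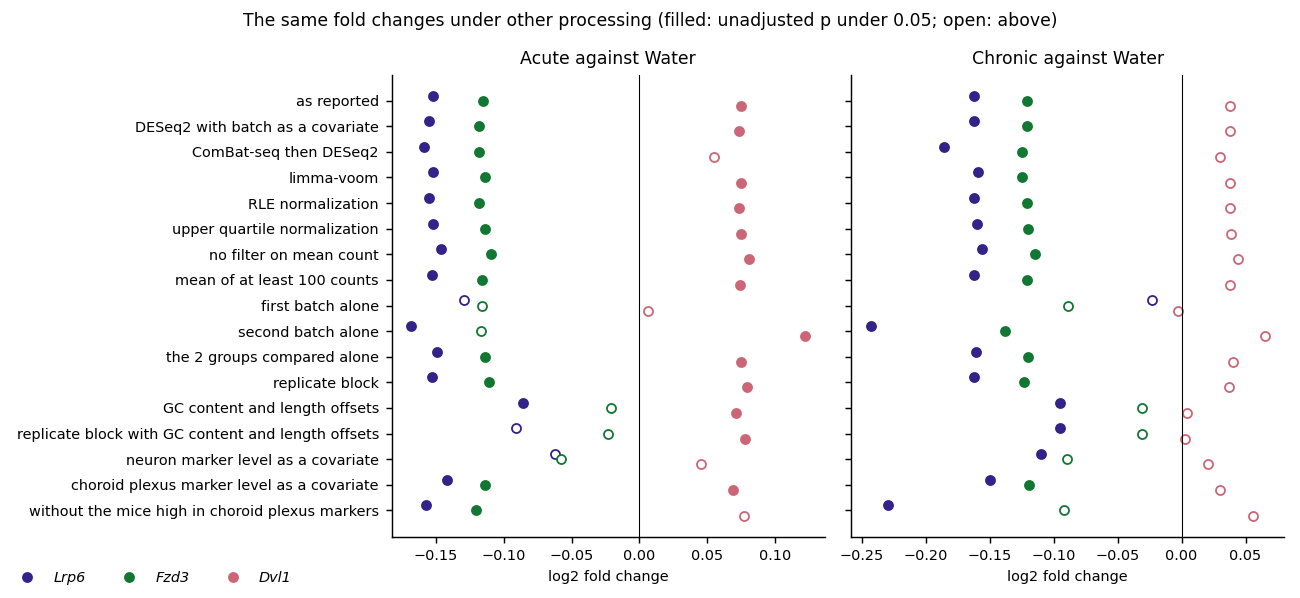
Log2 fold changes of *Lrp6* (violet), *Fzd3* (green) and *Dvl1* (rose) against Water as reported and under each other processing, with filled points for an unadjusted p under 0.05 and open ones above. *Lrp6* stays below 0 throughout, between -0.17 and -0.06 in Acute and between -0.24 and -0.02 in Chronic mice, the latter value from the first batch alone.

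Among the 10 genes, the correlations over the 28 mice, with batch removed, are a description of punches that share libraries. *Fzd3* went with *Gsk3b* (r = 0.68), *Lrp6* (0.6) and *Apc2* (0.55), and *Lrp6* with *Fzd7* (0.48) and against *Dvl1* (-0.5) and *Dkk3* (-0.43). As deviations from the means of group and batch, the values for *Fzd3* were 0.66, 0.44 and 0.63 and those for *Lrp6* 0.47, -0.43 and -0.55, and *Fzd3* went against *Axin1* (-0.61, beside -0.36 with only batch removed). The 5 genes whose levels were most like *Lrp6*, of 11722 with a mean of at least 100 counts, were *Zfyve16* (r = 0.796), *Igf2r* (0.777), *Atp11a* (0.773), *Kif27* (0.77) and *Abca1* (0.765). The median r of all 11722 genes with *Lrp6* was -0.04 and the 99th percentile 0.594. As deviations from the means of group and batch, the r of the 5 lay between 0.64 and 0.739.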

How the data were processed

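Amygdala RNA of 28 mice was measured by RNA-seq. The authors quantified paired-end reads with Salmon 0.14.1 after FastQC 0.11.8, on a GRCm38 transcriptome with GENCODE release M21, and collapsed transcripts to genes with tximport. The deposited estimated counts are whole numbers, in 1 table per batch, without normalization or batch adjustment. Groups and batches came from the labels, and 0 columns were left unused.

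Both tables were merged by gene ID, and a gene was kept where its counts averaged 10 or more per mouse. In R 4.3.3, edgeR 4.0.16 (TMM, quasi-likelihood F test, 2-sided, batch as a covariate, all 28 mice in 1 fit) gave the main result, adjusted by Benjamini-Hochberg over all genes at 0.05. Values per mouse used limma 3.58.1 to remove batch from log2 CPM (prior count 2). Depth was 20004380 to 22569562 counts per mouse. Each sample is 1 mouse. The fits were also run on simulated counts, which held no trend with GC content, length or marker levels. Their outcome is not used here. Pairs of mice of 1 group and batch differed by more than sampling noise in 55 of 55 pairs.

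The 10 genes, the wider lists and the markers were chosen with earlier results of these data known. Named from the lists were genes at an unadjusted p under 0.05, up to 2 per list and comparison with the smallest p, and the 5 genes most correlated with *Lrp6*. Beyond that rule, *Wnt2* in Chronic against Water mice, *Lrp5*, *Fzd2*, *Sostdc1*, *Dvl2*, *Dvl3*, *Dkk1*, *Dkk2*, *Dkk4*, *Wnt3a*, *Lef1*, *Myc* and *Ccnd1* were named after their values were seen. Marker lists for astrocytes, microglia, OPC, endothelial cells, thalamus and striatum were also scored, and 0 of their genes were called.

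Alternatives were DESeq2 1.42.0, ComBat-seq (sva 3.50.0) with DESeq2, limma-voom, other scalings and filters, each batch alone, only the groups compared, a replicate block, offsets for GC content and length, and each mouse left out. Covariates for neuron and choroid plexus markers, the fit without choroid-rich mice and the batch interaction were added after the data were seen.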

Additional observations from a re-analysis of the deposited data

Results flagged for a closer look

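Of 30 groups of mice examined, 10 genes in 3 groups, 2 held a mouse far from the others, and chance flags about 1 group in 20. *Ctnnb1* was highest in Chronic mouse 39 of the first batch, at 534 CPM with the next mouse at 503, a gap of 0.518 of the group's range. *Dvl1* was lowest in Chronic mouse 1 of the second batch, at 78.8 CPM with the next at 87.9, a gap of 0.605 of the range. Without Chronic mouse 1, the log2 fold change of *Dvl1* in Chronic mice was 0.058 in edgeR (adjusted p = 0.607), beside 0.038 with all mice. Without Chronic mouse 39, that of *Ctnnb1* was -0.018 (adjusted p = 0.892), beside -0.003.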

How the results depend on the processing

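The count of called members stayed at 0 in all 3 comparisons under every alternative, except for 1 (*Lrp6*) in Chronic mice with ComBat-seq and DESeq2, and with each mouse left out it was 0 throughout. The count at an unadjusted p under 0.05 in Acute mice was 3 (*Lrp6*, *Fzd3* and *Dvl1*) and became 1 in the first batch alone (*Axin2*, none of those 3), 1 with the replicate block and GC and length offsets (*Dvl1*), and 0 with the neuron level as a covariate. It was 2 with ComBat-seq and DESeq2 and without choroid-rich mice (*Dvl1* lost), and with the offsets and in the second batch alone (*Fzd3* lost). In Chronic mice it went from 2 to 0 in the first batch alone and 1 (*Lrp6*) with the neuron covariate, while the offsets and the fit without choroid-rich mice gave 2, *Lrp6* and *Axin1*, and for Chronic against Acute from 0 to 1 (*Axin2*) in the first batch alone and to between 0 and 1 with a mouse left out (1 without Acute mouse 2, Chronic mouse 1 or Chronic mouse 4). With a mouse left out it was between 2 and 3 in Acute and between 2 and 3 in Chronic mice. The cause was not tested. Over all genes, 0 were called in Acute and 3 in Chronic mice with edgeR, 8 and 36 with DESeq2, 30 and 98 with ComBat-seq and DESeq2, and 2 with voom in Acute and 1 with the offsets in Chronic mice. The 3 in Chronic mice became 0 in the first batch alone and without choroid-rich mice, 6 without Water mouse 3 and 5 without Chronic mouse 37, and the 0 in Acute mice became 2 without Chronic mouse 38 and 1 without Acute mouse 34. The labels do not say whether the replicate numbers of the second batch pair the mice. Over 16 pairs with the same number, deviations correlated over 0.1 in 4, from -0.346 to 0.338. The pairs of number 5 had 0.15, 0.338 and 0.222, so these values do not settle whether the mice were paired. With the replicate block 3, 2 and 0 of the 10 members were at an unadjusted p under 0.05, with *Lrp6* at -0.153 and -0.162.
Of 1320 fold changes under alternatives, 1225 kept their sign and side of the threshold, 1 was called in addition and 94 changed sign, the largest at 0.187 in size. For Acute against Water these were *Dkk3* at -0.005 (ComBat-seq), -0.004 (voom), -0.02 (second batch), -0.006 (GC and length offsets), -0.137 (neuron), -0.004 (choroid covariate) and -0.037 (without choroid-rich mice); *Gsk3b* at 0.026 (offsets) and 0.021 (block with offsets); *Apc2* at 0.002 (block with offsets); *Axin2* at 0.083 (second batch), 0.03 (neuron) and 0.056 (without choroid-rich mice); and *Fzd7* at 0.009, 0.112 and 0.046 for the same 3 settings. For Chronic against Water, *Fzd7* was 0.008 (voom), 0.187 (first batch), 0.163 (neuron) and 0.042 (choroid covariate), *Ctnnb1* 0.003 (no filter), 0.001 (second batch), 0.003 (choroid covariate) and 0.033 (without choroid-rich mice), *Dvl1* -0.003 (first batch), *Apc2* -0.008 and *Dkk3* 0.021 (second batch), *Gsk3b* 0.031 (offsets), 0.032 (block with offsets) and 0.001, and *Dkk3* 0.031 (both without choroid-rich mice). For Chronic against Acute, the first batch gave *Lrp6* 0.106, *Fzd3* 0.027 and *Gsk3b* -0.014, the second *Fzd7* -0.156 and *Dkk3* 0.041, the neuron covariate *Dkk3* 0.048, and the fit without choroid-rich mice *Dkk3* 0.068, *Fzd3* 0.028 and *Fzd7* -0.145.
With 1 mouse left out, signs changed for *Dkk3* (-0.032 to 0.046) in Acute, for *Fzd7* (-0.147 to 0.04), *Ctnnb1* (-0.018 to 0.015), *Apc2* (-0.004 to 0.057) and *Dkk3* (-0.033 to 0.042) in Chronic, and for *Lrp6* (-0.039 to 0.011), *Fzd3* (-0.028 to 0.019), *Fzd7* (-0.01 to 0.248), *Gsk3b* (-0.013 to 0.017) and *Dkk3* (-0.052 to 0.042) in Chronic against Acute mice. The unadjusted p of *Dvl1* in Acute mice was under 0.05 in 20 of 28 such fits.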
